A study of Homo sapiens with 8 samples.

Results

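The data analyzed here are the pairs of mutually exclusive exons (MXE) counted in U2OS cells, a human osteosarcoma line, after depletion of CHERP, a nuclear protein that takes part in splicing. Every row of the MXE tables of whole cells and of the cytoplasm was taken, and rows with the same 2 exons were joined into 1 pair, for which the row with the most reads stood. The 17673 rows gave 12455 pairs in 4855 genes by symbol. Of these pairs, 11449 were listed in whole cells, 3848 in the cytoplasm and 2842 in both. The control cells received 20 nM siRNA against EGFP, a gene that U2OS cells do not carry, and the depleted cells received 20 nM of CHERP siRNA #2. RNA was taken after 48 h. Each of the 4 groups holds 2 libraries, and a single siRNA stood for the depletion. The names of the libraries in the tables carry no number, and they are called the first and the second library here.

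A pair of mutually exclusive exons is a choice: the mature mRNA carries the 5′ exon or the 3′ exon, counted in the order of transcription, but not both. Many textbook pairs arose by duplication of an exon, so that both exons have the same length, keep the reading frame and encode alternative versions of the same stretch of protein. The choice can be enforced by an intron between the exons that is too short to be spliced, by splice sites that are not compatible or by proteins that repress one of the exons. The measure used here is the share of the 5′ exon, which is the reads of its form divided by the effective length and by the sum over both forms, so that 0 means that the 3′ exon was used alone and 1 that the 5′ exon was used alone. Differences are CHERP siRNA minus EGFP siRNA.

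CHERP reads on its own skipped exon event fell from 54 and 46 in the whole-cell EGFP libraries to 2 in each CHERP library. On its alternative 3′ splice site event, the cytoplasmic EGFP libraries held 31 and 21 reads, and the CHERP libraries 3 and 4. Summed over all MXE rows, whole-cell libraries held 6766174 to 8274464 reads and cytoplasmic libraries 863057 to 1039428. A pair had a median of 177 reads per library in whole cells and of 62.5 in the cytoplasm. The cytoplasmic shares are therefore less precise. The methods call the libraries of a group biological replicates without saying how the cultures were separated, so the p-values rest on the spread between these libraries. For each pair this spread was moderated towards that of other events, with 21.5 prior degrees of freedom in whole cells and 14.3 in the cytoplasm. It is thus not the spread of the pair's own libraries alone.

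Few of the pairs that rMATS lists as mutually exclusive had exons that exclude each other in the annotation. In GENCODE 44, 11766 pairs (94.5%) had at least 1 transcript that carried both exons, 624 pairs (5.01%) had their exons in separate transcripts only, and 65 had an exon that is not annotated. Among the 624 pairs, 537 also had no form joining the exons in the skipped exon (SE) tables. By length, 162 pairs (1.3%) had exons of equal length, 4544 (36.5%) had a length difference divisible by 3, which leaves the frame downstream unchanged when one coding exon replaces the other, and 7749 (62.2%) had a difference not divisible by 3. Both exons were coding in 9770 pairs. The exons had a median length of 111 nucleotides (nt) and were separated by a median of 3107 nt.

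The annotation and the use of the exons went together. In whole cells with EGFP siRNA, among pairs with 20 or more reads per library on average, 37.4% of the 9932 pairs with a joint transcript had a 5′ exon share between 0.4 and 0.6. Among the 318 pairs in separate transcripts only, this was 10.4%, and 20.1% had a share under 0.05 and 21.7% a share of 0.95 or more. Pairs in separate transcripts thus gathered at the ends of the scale, where 1 exon is used nearly alone.

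**Figure D1:**
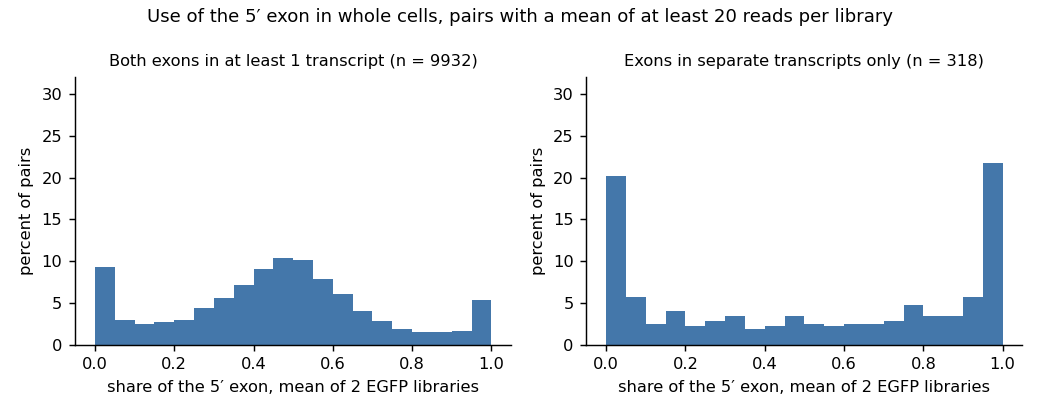
Distribution of the 5′ exon share (horizontal axis, mean of the 2 whole-cell EGFP libraries) as percent of pairs (vertical axis) for 9932 pairs with both exons in a transcript and 318 pairs with exons in separate transcripts only. Pairs with a joint transcript peak near equal use, while pairs in separate transcripts gather at both ends.

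The pairs with equal exon lengths that passed the test in whole cells are shown first, because equal length marks many textbook pairs and the sequences let both exons be compared. There were 6, in MAPK14, MAPK8, PKM, RAB6A, TPM2 and U2AF1. All 12 exons are coding, and in 5 of the genes the exons lie in separate transcripts only, whereas GENCODE 44 lists a U2AF1 transcript with both. The sequences were read from GRCh37 and are given 5′ to 3′ on the strand of the gene, with capitals at the positions at which the exons of a pair differ when they are laid side by side without gaps.

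PKM encodes pyruvate kinase of glycolysis, and its exons define the M1 (5′ exon) and M2 (3′ exon) isoforms. They are 167 nt long, were identical at 105 positions (62.9%) and are separated by 401 nt.
PKM 5′ exon, chr15:72495363-72495529, minus strand: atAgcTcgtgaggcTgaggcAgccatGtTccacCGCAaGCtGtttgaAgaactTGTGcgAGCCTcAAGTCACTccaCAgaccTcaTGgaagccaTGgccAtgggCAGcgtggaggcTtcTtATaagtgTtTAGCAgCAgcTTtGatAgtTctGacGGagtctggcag
PKM 3′ exon, chr15:72494795-72494961, minus strand: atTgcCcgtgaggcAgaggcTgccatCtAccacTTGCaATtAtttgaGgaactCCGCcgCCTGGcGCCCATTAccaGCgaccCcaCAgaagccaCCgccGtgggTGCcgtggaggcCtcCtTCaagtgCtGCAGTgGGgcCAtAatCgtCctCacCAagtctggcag

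MAPK8 encodes the stress kinase JNK1. Its exons of 72 nt were identical at 44 positions (61.1%) and are separated by 354 nt.
MAPK8 5′ exon, chr10:49632131-49632202, plus strand: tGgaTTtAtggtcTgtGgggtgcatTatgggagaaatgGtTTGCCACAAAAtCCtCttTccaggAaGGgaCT
MAPK8 3′ exon, chr10:49632557-49632628, plus strand: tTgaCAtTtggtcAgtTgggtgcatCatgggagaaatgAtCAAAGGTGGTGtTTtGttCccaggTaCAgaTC

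MAPK14 encodes the stress kinase p38α. Its exons of 80 nt were identical at 41 positions (51.2%) and are 4121 nt apart.
MAPK14 5′ exon, chr6:36063764-36063843, plus strand: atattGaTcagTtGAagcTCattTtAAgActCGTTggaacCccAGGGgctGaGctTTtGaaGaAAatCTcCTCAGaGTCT
MAPK14 3′ exon, chr6:36067965-36068044, plus strand: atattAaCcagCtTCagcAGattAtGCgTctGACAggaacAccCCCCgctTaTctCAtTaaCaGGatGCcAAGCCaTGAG

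RAB6A encodes a small GTPase of Golgi transport, and the pair distinguishes RAB6A from its isoform RAB6A′. The exons of 106 nt were identical at 75 positions (70.8%), with an intron of only 66 nt between them.
RAB6A 5′ exon, chr11:73429830-73429935, minus strand: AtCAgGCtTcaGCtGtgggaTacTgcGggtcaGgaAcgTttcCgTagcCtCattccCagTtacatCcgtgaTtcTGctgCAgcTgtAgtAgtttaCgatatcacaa
RAB6A 3′ exon, chr11:73429658-73429763, minus strand: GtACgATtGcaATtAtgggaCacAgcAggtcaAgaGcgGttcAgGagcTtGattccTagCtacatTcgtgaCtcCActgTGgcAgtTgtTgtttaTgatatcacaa

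TPM2 encodes β-tropomyosin, which binds along actin filaments. The exons of 76 nt were identical at 40 positions (52.6%) and are separated by 256 nt.
TPM2 5′ exon, chr9:35685061-35685136, minus strand: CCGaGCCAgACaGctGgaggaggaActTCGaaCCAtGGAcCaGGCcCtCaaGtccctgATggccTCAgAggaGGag
TPM2 3′ exon, chr9:35684729-35684804, minus strand: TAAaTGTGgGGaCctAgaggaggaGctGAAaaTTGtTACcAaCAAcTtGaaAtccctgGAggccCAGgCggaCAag

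U2AF1 encodes the small subunit of the U2 auxiliary factor, which recognizes the AG at the 3′ end of introns. The exons of 67 nt were identical at 44 positions (65.7%) and have 846 nt between them.
U2AF1 5′ exon, chr21:44521476-44521542, minus strand: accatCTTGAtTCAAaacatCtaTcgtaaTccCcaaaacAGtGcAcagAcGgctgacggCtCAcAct
U2AF1 3′ exon, chr21:44520563-44520629, minus strand: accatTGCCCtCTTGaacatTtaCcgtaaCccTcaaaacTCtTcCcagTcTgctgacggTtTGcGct

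With CHERP siRNA, the rarely used exon of PKM and of MAPK8 rose, the 5′ exon of RAB6A rose, and the 5′ exons of MAPK14, TPM2 and U2AF1 fell. For none of the 6 pairs did the EGFP and CHERP libraries of whole cells overlap, which was also so for 36.1% of all rows of the table. The MAPK14 share was 0.815 and 0.867 in the EGFP libraries and 0.641 and 0.663 in the CHERP libraries, a difference of -0.19 (adjusted p = 0.042, quasi-binomial test). The 5′ exon thus remained the more used one. The TPM2 share was 0.577 and 0.536 in the control against 0.454 and 0.423 with CHERP siRNA (difference -0.12, adjusted p = 0.00586). U2AF1 had 0.333 and 0.317 against 0.222 and 0.237 (difference -0.095, adjusted p = 0.00446), so that the 3′ exon, which was the major one in the control, gained further. The RAB6A share rose from 0.401 and 0.425 to 0.531 and 0.560 (difference 0.13, adjusted p = 0.0359), and the 5′ exon turned from the less used to the more used exon of the pair.

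In PKM and MAPK8 one form was rare, and the rare form gained. The PKM M1 exon had shares of 0.0105 and 0.0113 in the EGFP libraries and 0.0387 and 0.0405 after CHERP depletion (adjusted p = 0.00041), from a mean of 6506 reads per library. M2 thus remained the main form in each library. The MAPK8 5′ exon had 2 reads in each EGFP library, beside 143 and 192 reads of the 3′ exon. With CHERP siRNA it had 38 and 37 reads, beside 350 and 359. Its share rose from 0.0138 and 0.0103 to 0.0979 and 0.0934 (adjusted p = 0.0241), but the level in the control rests on these few reads.

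Without 1 library, the PKM call held in each case. The TPM2 call was lost without the second CHERP library (adjusted p = 0.122) and the U2AF1 call without the first (0.104). The RAB6A call was lost without the first or the second CHERP library (0.0983 and 0.299). The MAPK8 call was lost without the second EGFP, the first CHERP or the second CHERP library (0.0953, 0.0891 and 0.0607), and so was the MAPK14 call (0.179, 0.25 and 0.136).

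**Figure D2:**
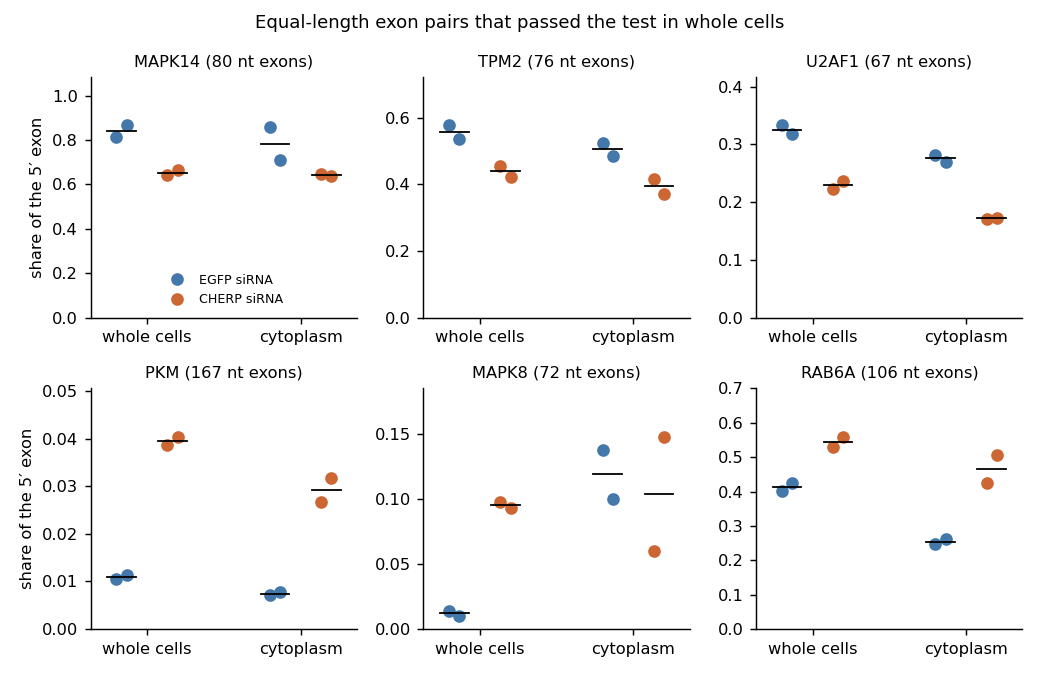
Share of the 5′ exon (vertical axis, each panel with its own scale from 0) of the 6 equal-length pairs in each library of whole cells and of the cytoplasm; points are libraries and lines the means of 2. The groups are apart in whole cells in all panels, and in the cytoplasm MAPK8 is the panel in which they overlap.

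In the cytoplasm none of the 6 pairs passed the test, with adjusted p between 0.099 and 0.896 in the quasi-binomial test. Of the 6 differences, 5 had the direction seen in whole cells. The RAB6A share was 0.247 and 0.261 against 0.426 and 0.505, and the U2AF1 share was 0.282 and 0.270 against 0.171 and 0.173. The 2 groups did not overlap for either pair, nor in 35.6% of all cytoplasmic rows. For TPM2 the cytoplasmic values were 0.525 and 0.484 against 0.417 and 0.372, and for PKM 0.00712 and 0.00767 against 0.0268 and 0.0317. MAPK14, with 44.75 reads per library, had 0.857 and 0.711 against 0.645 and 0.636. MAPK8 differed in direction, with 0.138 and 0.10 against 0.0603 and 0.148, and its groups overlapped.

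The 6 called pairs belong to 153 equal-length pairs of the whole-cell table, of which 29 had their exons in separate transcripts only. The median identity of their exons was 62.9%, against 43.7% in the 121 equal-length pairs with a joint transcript, and the median distance between the exons was 401 nt against 1980 nt. They include exons of ion channels (CACNA1D and SCN8A) and of SNAP25, a protein of synaptic vesicle fusion, which had between 1.25 and 15.75 reads per library in U2OS cells and could not be judged at this depth. Others were well covered and did not pass the test. P4HA1, the catalytic subunit of collagen prolyl 4-hydroxylase, had shares of 0.300 and 0.286 against 0.422 and 0.439, with groups that do not overlap and an adjusted p of 0.0775 in the quasi-binomial test. CALU, a calcium-binding protein of the secretory pathway, had 0.754 and 0.763 against 0.709 and 0.688 (adjusted p = 0.164).

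Several of these pairs used 1 exon almost alone with either siRNA. MAPK9, which encodes JNK2 and carries exons of 72 nt that match the MAPK8 pair in length, had shares of 0.0249 and 0.0351 against 0.0160 and 0.0162. The actin cross-linker ACTN4 had 0.966 and 0.916 against 0.966 and 0.967, and the membrane-severing GTPase DNM1 had 0.959 and 0.970 against 0.988 and 1.0. For none of these 3 did the adjusted p fall under 0.4. The MAPK9 5′ exon was therefore rare in all 4 whole-cell libraries. The MAPK8 5′ exon was rare in the whole-cell EGFP libraries and was used at up to 0.0979 in the whole-cell CHERP libraries. In the cytoplasmic EGFP libraries, however, its share was 0.138 and 0.10, from 4 and 3 reads of that exon. The difference between these genes was not tested.

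The equal-length pairs with the most reads were of another kind. Beside PKM, U2AF1 and TPM3, the 10 deepest were in NME2 (2 pairs), TNC, LDHA, HNRNPA1, NCL and MORF4L1, in each of which a transcript carries both exons. The pair of LDHA, lactate dehydrogenase A, had 0.509 and 0.514 against 0.516 and 0.515, and that of NCL, nucleolin, 0.537 and 0.561 against 0.570 and 0.573. As skipped exon events, both LDHA exons were included at 0.998 or more with either siRNA and both NCL exons at 1.0. The SE values alone do not separate such pairs from exclusive ones. Both RAB6A exons, which lie in separate transcripts only, also had 0.996 or more. Since a transcript carries both exons of the LDHA and of the NCL pair, their shares near 0.5 need not describe a choice.

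The question for the whole-cell table was which shares shift when CHERP is depleted. Of the 11449 pairs, 99 passed the test (0.865%), beside 0.844% of all rows tested. They lie in 73 genes, 49 with a higher and 50 with a lower share of the 5′ exon, beside 0.415% and 0.43% of all rows. In all 99 the groups did not overlap, against the same 36.1% of all rows. The median size of the change was 0.118 among the 99 pairs, and 59 changed by at least 0.1. The called pairs had a median of 801 reads per library against 177 for all pairs.

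The number of calls depends on how the spread is estimated. With limma on log2 odds, with the spread of each pair taken alone and with the spread moderated over all events, 0 pairs passed, although 963, 139 and 861 pairs had an unadjusted p under 0.05. Without the first or the second EGFP library 277 and 171 pairs passed, and without the first or the second CHERP library 45 and 51. Of the 99 pairs, 25 passed without any 1 library, and all 99 kept their direction in each case.

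By length, 6 of 153 equal-length pairs (3.92%), 33 of 4158 pairs with a difference divisible by 3 (0.794%) and 60 of 7138 pairs with another difference (0.841%) were called. Among the equal-length pairs in separate transcripts it was 5 of 29 (17.2%), against 1 of 121 (0.826%) where a transcript joins the exons. Of the 575 pairs in separate transcripts, 15 were called (2.61%), although their median of 27.8 reads per library was lower than the 187 of the other annotated pairs, of which 0.776% were called. In the 196 pairs in separate transcripts with a difference divisible by 3, 0 were called by the quasi-binomial test and by limma, with 24 at an unadjusted p under 0.05. These shares are given as a description.

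Calls were found in each frame class. Of the 8995 pairs with both exons coding, 47 were called (0.523%), below the 0.865% of all pairs. They were 6 of 135 pairs with equal lengths (4.44%), 19 of 3373 with a difference divisible by 3 (0.563%) and 22 of 5487 with a difference that shifts the frame (0.401%). With both exons coding and in separate transcripts, 5 of 26 equal-length pairs, 0 of 72 pairs with a difference divisible by 3 and 1 of 39 pairs with another difference were called by the quasi-binomial test. By limma 0 were called in each class, and 9, 9 and 5 had an unadjusted p under 0.05. The 1 pair with another difference is in LETMD1, whose exons differ by 67 nt.

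The exons of the other called pairs in separate transcripts lie at varied distances. In DIABLO, a protein that promotes apoptosis, the exons of 104 and 133 nt abut with 0 nt between them, and the share of the 5′ part rose from 0.0378 and 0.109 to 0.223 and 0.207 (adjusted p = 0.00163). In COMMD6, an adaptor of the COMMD family, 44 nt separate the exons, and the share of the 95 nt exon rose from a mean of 0.0687 to 0.166 (adjusted p = 0.00397). The exons were further apart in SLC25A36 (499 nt), C5orf22 (2777 nt), CPNE3 (3162 nt), RP11-640M9.2 (7778 nt) and the ANXA2 pairs (5833 and 5962 nt).

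**Figure D3:**
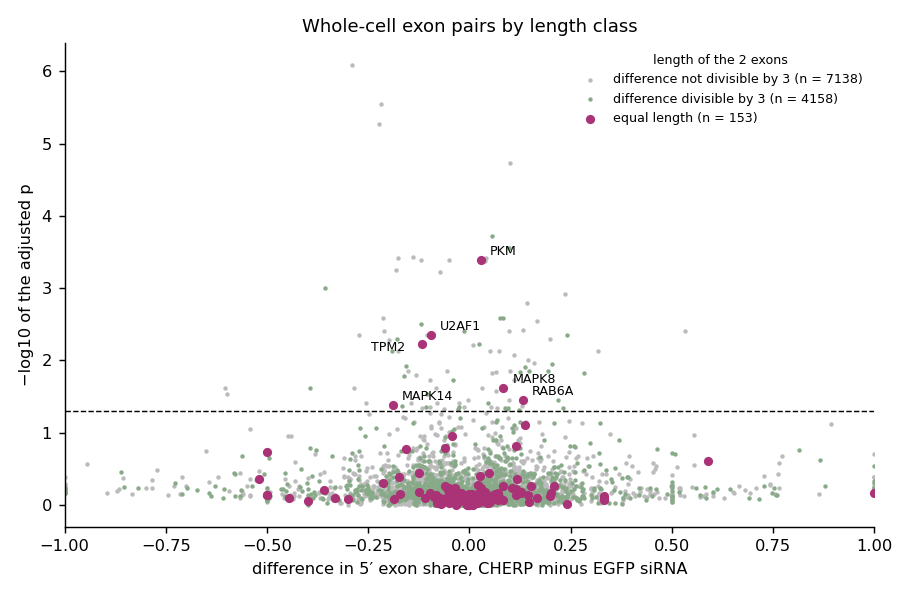
Difference in the 5′ exon share (horizontal axis, CHERP minus EGFP siRNA) against −log10 of the adjusted p (vertical axis) for the 11449 whole-cell pairs, coloured by length class, with the threshold of 0.05 dashed. The 6 named equal-length pairs lie above the line, 3 on each side of 0.

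The largest shifts reached 0.6 of the choice and were found in protein-coding genes and in noncoding RNAs. The 8 largest falls and the 8 largest rises with at least 20 reads per library, 1 pair for each gene, are described here. Among the falls, SLC25A36, a mitochondrial carrier of pyrimidine nucleotides, had shares of 0.604 and 0.762 in the EGFP libraries against 0.0368 and 0.133 in the CHERP libraries (difference -0.60, adjusted p = 0.029), from a mean of 25.5 reads per library. DLG1, a scaffold of cell polarity, fell from 0.743 and 0.705 to 0.297 and 0.439 for an exon of 100 nt against one of 34 nt. ANXA2, a calcium-dependent membrane-binding protein, fell from 0.601 and 0.602 to 0.326 and 0.298 for an exon of 277 nt in the 5′ UTR (adjusted p = 8.09e-07). Reads were ample for ANXA2, and 6 of its pairs passed, 5 of them with the 277 nt exon or its shorter version of 148 nt as the 5′ exon, so that they share reads.

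Further falls were in LETMD1, a mitochondrial protein, from 0.524 and 0.578 to 0.255 and 0.275. SEC31A, a coat component of vesicles leaving the endoplasmic reticulum, fell from 0.279 and 0.433 to 0.112 and 0.056. MFF, which recruits the fission machinery to mitochondria, fell from 0.883 and 0.901 to 0.665 and 0.672 (adjusted p = 5.33e-06). The noncoding LINC01029 (0.477 and 0.422 to 0.227 and 0.235) and RP11-640M9.2 (0.629 and 0.705 to 0.429 and 0.391) completed the falls. In each of these 8 pairs the groups were further apart than the libraries within a group, most narrowly in SEC31A.

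The largest rise was in CPNE3, a calcium-dependent phospholipid-binding protein, where the choice is between 2 exons of the 5′ UTR. The 5′ exon had 0 of 48 reads in the EGFP libraries, which allows a share of up to 6.25% of the reads, and 13 of 23 and 13 of 27 reads in the CHERP libraries (adjusted p = 0.00397). An exon with no read in the control thus made up 0.575 and 0.491 of the choice after correction for length. Both exons were rare among all transcripts, since as SE events the 5′ exon was included at 0.0 with EGFP siRNA and 0.0308 with CHERP siRNA (adjusted p = 0.0448), and the 3′ exon at 0.0631 and 0.0269 (adjusted p = 0.399). SENP6, a protease of SUMO chains, rose from 0.644 and 0.482 to 0.878 and 0.881. STRADA, which activates the tumour suppressor kinase LKB1, rose from 0.0678 and 0.0146 to 0.280 and 0.283. The 58 nt exon of STRADA was thus rare in the control.

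TRIM5, an antiviral restriction factor, rose from 0.114 and 0.120 to 0.359 and 0.337 for an exon of 23 nt. SEC11A, the catalytic subunit of the signal peptidase, rose from 0.147 and 0.168 to 0.405 and 0.381. ARHGAP12, a GTPase-activating protein, rose from 0.657 and 0.633 to 0.843 and 0.856. The rises in the noncoding RNAs were from 0.226 and 0.269 to 0.560 and 0.502 in THAP9-AS1 and from 0.758 and 0.603 to 0.895 and 0.902 in LUCAT1. THAP9-AS1 is an antisense gene, and whether reads were counted by strand is not given in the sources used here. LUCAT1 depends on 1 library: its difference of 0.22 was 0.14 without the second EGFP library.

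Of these 16 pairs, those of ANXA2, CPNE3, DLG1, LINC01029, MFF, SEC11A and SEC31A passed without any 1 library. The others lost the call at least once, with adjusted p of 0.0571 for STRADA, 0.0599 for SENP6 and 0.415 for LUCAT1 without the second EGFP library, 0.0713 for SLC25A36, 0.0832 for ARHGAP12, 0.167 for THAP9-AS1, 0.261 for LETMD1 and 0.337 for TRIM5 without the first CHERP library, and 0.366 for RP11-640M9.2 without the second.

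**Figure D4:**
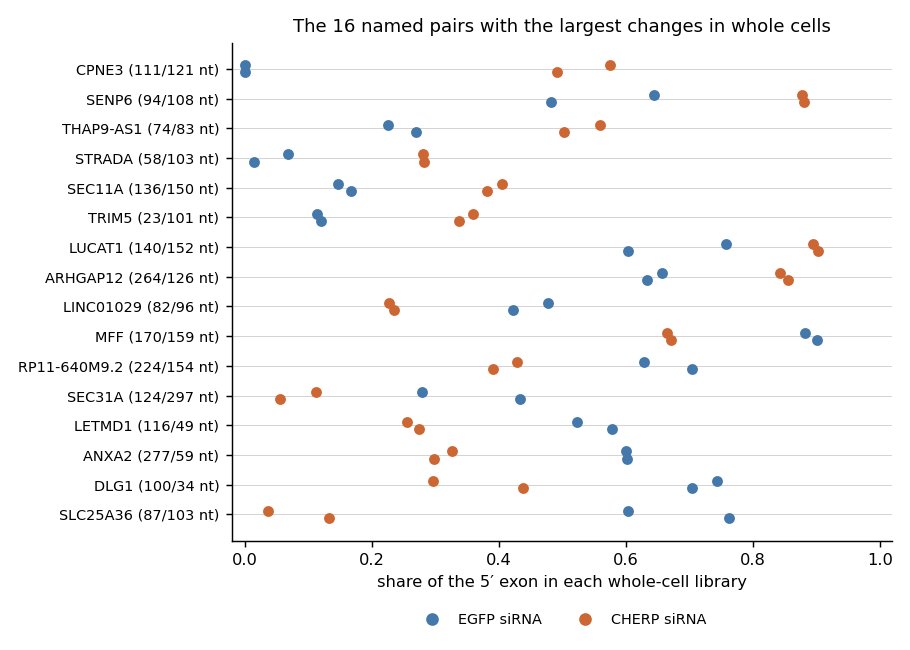
Share of the 5′ exon (horizontal axis) in each whole-cell library for the 16 pairs with the largest changes, with the lengths of the 5′ and 3′ exon in nt beside the gene; the 2 points of a colour are libraries of a siRNA. In every line the CHERP points lie on 1 side of the EGFP points, 8 higher and 8 lower.

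To see which exon of a pair moved, the SE events of the same exons were compared. The 2 views share reads and are not independent. Of the 99 called pairs, 95 had an SE event for both exons, and in whole cells 0.861% of all SE events passed. Both exons passed as SE events in 3 of the 95 pairs, the 5′ exon alone in 18, the 3′ exon alone in 25 and neither in 49. In 2 of the 95 pairs both exons were called in opposite directions. An SE event sets an exon against its skipping, so an exchange between 2 exons need not show in it. Both exons of the called RAB6A pair were included at 0.996 or more as SE events with either siRNA, and those of TPM2 at 0.991 or more. The count of 2 is therefore no measure of how many pairs exchanged their exons.

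One of the 2 pairs with SE calls in opposite directions was in NONO, a paraspeckle protein. The inclusion of its 57 nt exon in the 5′ UTR rose from a mean of 0.841 to 0.943 and that of the 114 nt exon fell from 0.0987 to 0.0263, and the share of the 5′ exon rose from 0.937 and 0.933 to 0.993 and 0.987 (adjusted p = 0.000192). In STRADA the inclusion of the 58 nt exon rose from 0.148 to 0.761 (adjusted p = 6.61e-06), and no SE event was matched to the 103 nt exon. In DLG1 the exons differed in opposite directions by value. The inclusion of the 34 nt exon rose from 0.0955 to 0.326 (adjusted p = 0.041), and that of the 100 nt exon was 0.469 with EGFP siRNA and 0.22 with CHERP siRNA, which did not pass the test (adjusted p = 0.0866). The inclusion of the 277 nt exon of ANXA2 fell from 0.0207 to 0.00827 (adjusted p = 3.93e-10), while the 59 nt exon was included at 1.0 with both siRNAs. Among the pairs with the largest changes, the 3′ exon alone passed in MFF, SEC31A, SENP6, TRIM5 and SLC25A36. Its inclusion rose in MFF (0.148 to 0.46), SEC31A (0.649 to 0.91) and SLC25A36 (0.0831 to 0.51). It fell in SENP6 (0.566 to 0.161) and TRIM5 (0.968 to 0.804). The 5′ exon alone passed in LINC01029, SEC11A, THAP9-AS1, LETMD1 and CPNE3.

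The lists of genes known for the exon choice, for splicing and for cell division were compared with all pairs. The 46 textbook genes of mutually exclusive exons had 55 pairs in 30 genes in whole cells. Of the 55 pairs, 2 rose (PKM and MAPK8) and 3 fell (MAPK14, TPM2 and U2AF1), which is 9.09% of the list against 0.865% of all pairs, and the median size of the difference was 0.0262 against 0.0305 over all pairs. These 5 pairs are among the 6 equal-length calls given above, so the rate is not a separate observation. The list was also chosen with earlier results of these data known. Members of the list with similar shares under both siRNAs include TPM1 (0.917 and 0.942 against 0.931 and 0.924), TPM3 (0.995 and 0.999 against 0.998 and 0.999), the transcription factor MEF2A (0.652 and 0.560 against 0.644 and 0.613) and the phosphate carrier SLC25A3 (0.0154 and 0.0268 against 0.0342 and 0.0272). The kinase FYN had 0.331 and 0.294 against 0.397 and 0.373, which did not pass the test (adjusted p = 0.803). In the cytoplasm 0 of the 38 pairs of the list passed by the quasi-binomial test or by limma, with 10 at an unadjusted p under 0.05.

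The 73 splicing factor genes of the list had 214 pairs in 53 genes, of which 8 rose and 3 fell. This is 5.14% of the list against 0.865% of all pairs, and the median size of the difference was 0.0214 against 0.0305. Of the 214 pairs, 210 had at least 20 reads per library on average, against 10286 of all 11449 pairs. Called pairs were deeper than others, and the part of depth in this rate was not tested. The 8 rises include 2 pairs of RBM39 and 2 of TRA2A that share their 5′ exon, and the balance of rises and falls was not tested. In RBM39 and TRA2A, both of which regulate exon choice, the rises were in exons of 1920 nt and 726 nt, which are annotated in noncoding transcripts. The TRA2A share of the 726 nt exon against an exon of 166 nt rose from 0.401 and 0.375 to 0.541 and 0.557, and that of the RBM39 exon against one of 195 nt was from 0.322 and 0.350 to 0.440 and 0.507. As SE events neither exon passed: the inclusion of the RBM39 exon was 0.955 with EGFP siRNA and 0.976 with CHERP siRNA, and that of the TRA2A exon was 0.989 and 0.975, in the direction opposite to its MXE share (adjusted p = 0.689 for both). SRSF6, a serine/arginine-rich splicing factor, rose from 0.114 and 0.157 to 0.203 and 0.201 (adjusted p = 0.0451, quasi-binomial test). The rise was in a 268 nt exon that is coding only in a transcript not classed as protein coding. As an SE event the same exon rose from a mean inclusion of 0.493 to 0.731 (adjusted p = 0.0238).

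The other rises of the list were in HNRNPA1, HNRNPF and HNRNPH3, and the falls in HNRNPK, SRSF1 and U2AF1. HNRNPF, an RNA-binding protein of G-rich sequences, rose from 0.312 and 0.381 to 0.523 and 0.505, with both exons in the 5′ UTR. SRSF1 fell from 0.756 and 0.697 to 0.60 and 0.637 (adjusted p = 0.0437, quasi-binomial test). With robust moderation of the spread SRSF1 and SRSF6 did not pass (adjusted p = 0.0657 and 0.0662), and 9 pairs of the list did. HNRNPA1 has processed copies in the genome that share its sequence, so its reads are less certain. Of the 146 pairs in 42 genes of the cell division list, 0 passed by the quasi-binomial test and by limma, with 16 at an unadjusted p under 0.05. With 0.865% of all pairs called, a count of 0 among 146 is near the background. Their median difference of 0.03 in size was close to that of all pairs.

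Several genes held more than 1 called pair, 15 in all. Among them is GAS5, a noncoding host gene of small nucleolar RNAs, with 6 pairs. In 5 of its pairs, an exon of 54, 77 or 38 nt gained against a downstream exon of 221 or 1026 nt, with differences between 0.09 and 0.11, and these pairs share exons and reads. RBM3, a cold-inducible RNA-binding protein, had 4 pairs with a 269 or 523 nt exon of a noncoding transcript, whose inclusion as an SE event rose from 0.0178 to 0.0372 for the 269 nt exon (adjusted p = 0.00633). In CHEK1, the checkpoint kinase, the 224 nt exon rose from 0.776 and 0.824 to 0.918 and 0.926 (adjusted p = 0.0482, quasi-binomial test). With robust moderation of the spread the CHEK1 pair did not pass (adjusted p = 0.0646). In RAD51C, a homologous recombination factor, the 259 nt exon fell from 0.735 and 0.768 to 0.576 and 0.574 (adjusted p = 0.000384).

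In the cytoplasm, 1 of the 3848 pairs passed, beside 0.024% of all rows tested, and 322 pairs had an unadjusted p under 0.05. It was in RPLP0, a protein of the ribosomal stalk, with shares of 0.0380 and 0.0339 in the EGFP libraries and 0.0959 and 0.105 in the CHERP libraries (adjusted p = 0.0217). In whole cells the same pair had 0.553 and 0.526 against 0.542 and 0.545. Its call was lost without the first EGFP, the second EGFP or the first CHERP library. Ribosomal protein genes have many processed copies in the genome, so their reads are less certain.

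The pairs called in whole cells mostly kept their direction in the cytoplasm. Whether both fractions came from the same cultures is not given in the sources used here. Of the 99 pairs, 50 were listed there, and 44 of the 50 had the same direction, 39 of them with groups that do not overlap. Some of the 50, as in ANXA2 and GAS5, share exons and reads, and no minimum of reads was set for them. Among 1995 pairs not called in whole cells and with at least 20 reads per library in both fractions, 57.0% had the same direction. The cytoplasmic change of the 50 pairs, taken in the whole-cell direction, had a median of 0.0496, and their whole-cell change a median size of 0.107. STRADA had cytoplasmic shares of 0.101 and 0.134 against 0.420 and 0.463, TRIM5 0.141 and 0.168 against 0.420 and 0.514, and THAP9-AS1 0.548 and 0.443 against 0.870 and 0.876. These 3 pairs had means of 35.25, 25.75 and 18.5 cytoplasmic reads per library. None passed in the cytoplasm (adjusted p = 0.18, 0.403 and 0.264, quasi-binomial test). The rises were larger than in whole cells by value, but the interaction with fraction had an adjusted p between 0.936 and 0.989. By contrast, ANXA2 had shares of 0.0217 and 0.0862 against 0.0 and 0.0104, and SEC11A 0.0210 and 0.0145 against 0.0193 and 0.0227. The 136 nt exon of SEC11A, in the 5′ UTR, thus had a low share in the cytoplasm with both siRNAs. SLC25A36, the largest fall in whole cells, had cytoplasmic shares of 0.18 and 0.084 against 0.136 and 0.0. Its groups overlapped there, with a mean of 12.75 reads per library.

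**Figure D5:**
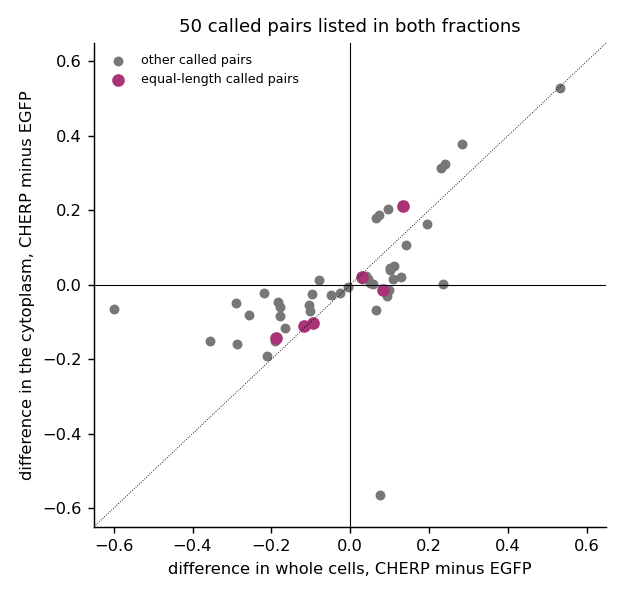
Difference in the 5′ exon share (CHERP minus EGFP siRNA) in whole cells (horizontal axis) and in the cytoplasm (vertical axis) for the 50 called pairs listed in both; the dotted line marks equal differences. Most points, 44 of 50, lie in the quadrants of the same direction, and the lowest point is HNRNPA1 with 1.75 cytoplasmic reads per library.

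The fractions differed in the level of many pairs. Over the 2041 pairs with at least 20 reads per library in both, the 5′ exon share with EGFP siRNA differed by a median of 0.111 between whole cells and cytoplasm, and the 2 levels had a Pearson r of 0.654 across pairs, which are not independent replicates. The fractions also differ in depth, in read length and in the effective lengths of the forms, and the part of these differences in the values was not tested. An interaction of siRNA and fraction was tested for 2908 rows with the same coordinates in both tables. It passed for 3 rows (0.103%), 2 of which stand for their pair, in RPL34 and LGALS1. The RPL34 share fell in whole cells from 0.961 and 0.974 to 0.921 and 0.915, and in the cytoplasm it was 0.573 and 0.544 against 0.537 and 0.524 (interaction, adjusted p = 0.0278). The next smallest adjusted p of the interaction, 0.549 for RPLP0 and 0.843 for MAPK8 and DAK, were far from the threshold.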

How the data were processed

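Stranded poly(A)+ libraries were sequenced by the authors, mapped to hg19 with STAR 2.5.2b and counted with rMATS, whose version is not given in the sources used here. RSEM 1.2.25 was used by the authors for expression, and that table was not used. The deposited MXE, SE and A3SS tables hold, per the file headers, the reads of each library on each form and the effective length of the form, without normalization. A cell joins 2 libraries without a number. The authors' p-values, FDR and inclusion differences were not used, nor were 36 columns of per-library values (inclusion levels, and the reads of the A5SS and RI tables).

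The inclusion form was found to be the 5′ exon on both strands, from the effective lengths. Every row with reads in both groups was tested with a quasi-binomial model of the 2 forms in R 4.3.3, with Benjamini-Hochberg adjustment over all rows of a table and a threshold of 0.05. The Pearson dispersion was moderated with limma 3.58.1, with a trend on mean reads and a floor of 1. The plan was to estimate the prior on all events. On simulated data this missed most changes. The prior was therefore estimated on events whose rarer form had 10 or more reads per library on average, a change made after the data were seen. The prior degrees of freedom were 21.5 in whole cells and 14.3 in the cytoplasm. The smallest dispersion was 1.35 in whole cells. The limma alternative added 0.5 to each form.

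Named pairs were, for each fraction, the called pairs with at least 20 reads per library and groups apart (8 largest rises and falls, 1 pair per gene, and the 5 largest of each length class), the textbook genes, the 10 equal-length pairs with the most reads, and the 5 smallest interaction p-values. Other genes were named after their values were seen. The pairs and gene lists were chosen with earlier results of these data known. Exon annotation came from GENCODE 44 lifted to GRCh37, whereas the authors used another release, and sequences were read with pysam 0.24.0. Tables were handled in Python 3.11.15 with pandas 2.3.3, numpy 2.4.6 and scipy 1.17.1. Shares and limits from counts cover counting error only.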

Additional observations from a re-analysis of the deposited data

Results flagged for a closer look

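For 3 events the effect of CHERP siRNA differed between whole cells and cytoplasm by the interaction test of the quasi-binomial model. In CDC123, a protein named for the cell division cycle, a row that does not stand for its pair had shares of the 5′ exon of 0.0705 and 0.121 in the EGFP libraries against 0.00763 and 0.00417 in the CHERP libraries of whole cells, and 0.668 and 0.663 against 0.782 and 0.666 in the cytoplasm (adjusted p = 0.00243). In RPL34, a ribosomal protein with processed copies in the genome, the difference was -0.05 in whole cells and -0.03 in the cytoplasm (adjusted p = 0.0278). In LGALS1, a galactoside-binding lectin, the share was 0.0210 and 0.0541 against 0.150 and 0.127 in whole cells and 0.156 and 0.182 against 0.231 and 0.196 in the cytoplasm (adjusted p = 0.0364). The test compares log odds, so that equal differences in share at different levels are not equal effects.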

How the results depend on the processing

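The calls in whole cells rest on the moderated dispersion. The count of 99 pairs was 90 with robust moderation, 99 for rows with a mean of at least 10 reads, 112 for at least 10 reads of the rarer form, 83 with 1 row tested per pair and 95 with the row of median rank, and it was 59 with a difference of at least 0.1 as a further condition. It was 0 with the dispersion of each event alone, with the prior from all events (the rule first planned) and with limma on log2 odds. Without 1 library it lay between 45 and 277. The 6 equal-length pairs passed in each of the first 5 of these settings. They numbered 3 with a difference of at least 0.1, 0 in the 3 settings without any call, and between 2 and 11 without 1 library. In the cytoplasm the count of 1 pair was 3 with robust moderation (LGALS1 and PKM being added), 0 with a difference of at least 0.1, with the dispersion of each event alone, with the prior from all events and with limma, where 11, 129 and 324 pairs had an unadjusted p under 0.05, and 0 to 1 without 1 library. The 3 interaction calls became 1 with the prior from all events and 0 to 8 without 1 library. For SE events in whole cells, 551 passed, and 587 with a mean of at least 10 reads. No called pair reversed its direction without 1 library or without length correction, but most called pairs lost the call at least once. Among pairs not called some changed sign, as MEF2A did, from 0.0223 to -0.0236 without the second EGFP library. The difference moved by over 1.5 times in FDPS (-0.13 to -0.07), FRG1 (-0.08 to -0.05) and LUCAT1 (0.22 to 0.14), each without the second EGFP library. No paired analysis was possible because the cells of the tables carry no replicate number. The cytoplasmic depth limits which changes can be seen there.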
